A study of Homo sapiens with 2 samples.

Results

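The genes described here were grouped by name as enzymes that write or erase methyl groups, or erase acetyl groups, on histones. They are the lysine demethylases, the lysine methyltransferases of the KMT, SETD and EZH names, the histone deacetylases and the sirtuins. SETD3 is in the group by its name, though it methylates a histidine of actin. Members were taken from the gene table by symbol, with at least 1 protein-coding transcript and outside the Y chromosome. This gave 55 genes of 60612 in the table: 18 demethylases, 19 methyltransferases, 11 histone deacetylases and 7 sirtuins. The D16 library came from MDA-MB-231, an established human line of triple-negative breast cancer, given 24 µM of the chalcone D16 for 48 h, and the control library from the line kept without D16. Both cultures were in RPMI-1640 with serum and antibiotics. Each group was 1 library, so the differences have no replicate check and no p-value, and "higher" and "lower" describe these 2 libraries. Levels are FPKM, fragments scaled for transcript length and library size. Orders between genes are by FPKM and rest on the lengths used in it, which were not checked here. The deposited counts summed to 73303902 in the D16 library and 72108404 in the control library, at about 4 counts per read pair. Intervals of 95% are given for counting error only, since PCR copies of a read are not independent molecules.

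Histone tails carry acetyl groups, which open chromatin and recruit bromodomain proteins, and methyl groups, whose effect depends on the lysine that bears them. Zinc-dependent histone deacetylases and NAD-dependent sirtuins remove acetyl groups. Methyl groups are added by SET-domain enzymes from S-adenosylmethionine and removed either by flavin-dependent amine oxidases of the KDM1 family or by JmjC oxygenases, which need iron and 2-oxoglutarate. Many of these enzymes also act on proteins other than histones, and inhibitors of HDACs, EZH2 and KDM1A have been studied as cancer drugs.

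Most of the enzymes differed little between the libraries, and SIRT1 stood apart. Of the 55 genes, 48 had a mean of at least 1 FPKM, and 41 of these 48 lay within 1.5-fold on the log2(FPKM + 1) scale (85.4%), against 75.8% of all 11830 genes at that level. The 6 genes at least 1.5-fold higher in the D16 library were SIRT1, SIRT7, KDM2A, KDM3A, SETD2 and SETD3. They made up 12.5% of the members, close to the 13.2% of all genes that were 1.5-fold higher. HDAC6 was the 1 member at least 1.5-fold lower (2.08%), where 11.0% of all genes were. Past 2-fold there was 1 higher member, SIRT1 (2.08%, against 3.63% of all genes), and no lower one (against 3.97% of all genes). The members' median log2 difference was 0.12 as deposited and -0.027 after the centring described next, beside 0.08 over all genes as deposited, and their standard deviation across genes was 0.33, beside 0.61.

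These counts depend on how the libraries are scaled. Rescaling both libraries to the same sum of FPKM gave 8 higher and 0 lower members of 48, where 21.4% of all genes were higher and 7.85% lower. Centring on the median of well-expressed genes gave 1 higher and 1 lower member, where 8.31% of all genes were higher and 15.6% lower. Over all genes the share of 1.5-fold calls that were higher was 54.7% as deposited, 73.2% with equal sums and 34.7% after centring. The median difference of all genes was 0.08 as deposited, 0.23 with equal sums and -0.07 after centring, so a class median is to be read against that shift. SIRT1 was past 1.5-fold higher under each scaling run. HDAC6 was below 0 under each of them but within 1.5-fold after rescaling to equal sums.

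**Figure D1:**
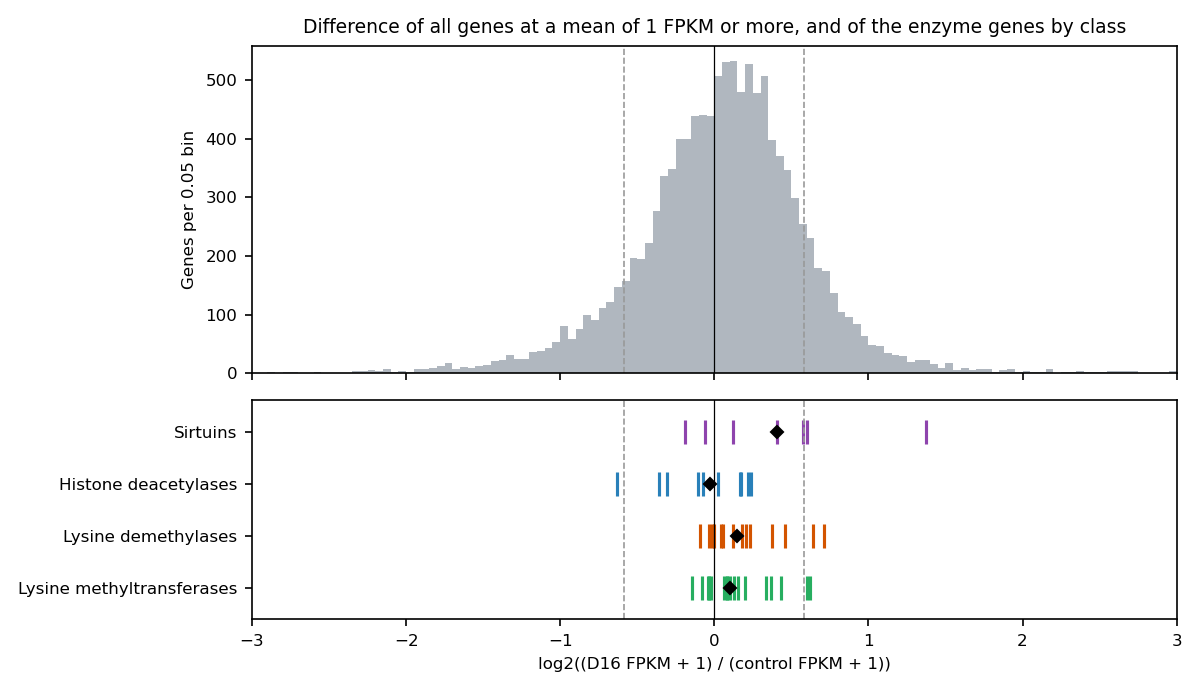
The upper panel counts genes averaging 1 FPKM or more by log2 difference between the D16 and control libraries, drawn from -3 to 3; the lower panel marks each enzyme gene by class, with black diamonds at the class medians and dashed lines at 1.5-fold. The sirtuins have the highest class median at 0.41, SIRT1 lies apart at 1.37, and the other classes crowd near 0.

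Sirtuins, which couple deacetylation to the breakdown of NAD, had the highest median of the 4 classes, at 0.41 over 7 genes. Their median was 0.26 after centring, 0.57 with equal sums and 0.21 with a pseudocount of 5 FPKM. As deposited, the 7 genes ran from -0.19 to 1.37, and the median of all genes was 0.08. SIRT1, a nuclear deacetylase of histones, p53 and other transcription regulators, stood at 10.6 FPKM in the D16 library and 3.49 FPKM in the control library. That is a 3.05-fold difference (95% interval 2.69 to 3.45), from 1068 and 337 read pairs. It ranked 185th of the 11830 genes from the highest difference. Its gene body, chr10:67884656-67918390 on the plus strand as the table gives it, overlapped no other gene that averaged 1 FPKM or more, nor did the other 6 members past 1.5-fold.

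The order of the sirtuins differed between the libraries. In the D16 library SIRT1 had the highest FPKM of the 7. SIRT6 followed at 8.44 FPKM with a counting interval (7.72 to 9.20) below that of SIRT1 (10.0 to 11.3). Such intervals do not cover the lengths used in FPKM. SIRT2 at 6.81 FPKM and SIRT7 at 6.33 FPKM came next, with intervals that overlapped. In the control library SIRT2 (6.19 FPKM) and SIRT6 (6.11 FPKM) led with overlapping intervals, and SIRT7 (3.83 FPKM) and SIRT1 (3.49 FPKM) came after them, also overlapping. SIRT1 made up 28.1% of the summed sirtuin FPKM in the D16 library and 14.0% in the control library.

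All 3 nuclear sirtuins were higher in the D16 library, beside 56.9% of all genes above 0. SIRT7, a nucleolar enzyme linked to ribosomal gene transcription, stood at 6.33 FPKM in the D16 library and 3.83 FPKM in the control library, 1.65-fold (95% interval 1.48 to 1.85), from 856 and 498 read pairs. It lies at chr17:81911939-81918176 on the minus strand. After centring SIRT7 was within 1.5-fold. SIRT6, a chromatin deacetylase with roles in DNA repair and glucose metabolism, stood at 8.44 and 6.11 FPKM in the D16 and control libraries, 1.38-fold and so within the 1.5-fold line. The cytosolic tubulin deacetylase SIRT2 stood at 6.81 FPKM with D16 and 6.19 FPKM without it, and its gene overlaps NFKBIB on the opposite strand.

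The mitochondrial sirtuins did not share a direction. SIRT3, the main mitochondrial deacetylase, stood at 1.98 FPKM in the D16 library and 2.11 FPKM in the control library, with an interval of the ratio (0.786 to 1.13) that holds 1. SIRT5, which removes succinyl and malonyl groups, stood at 1.98 and 2.40 FPKM in the D16 and control libraries. SIRT4 stood at 1.74 FPKM in the D16 library and 0.841 FPKM in the control library, a ratio of 2.07, but from 47 and 22 read pairs, and its interval ran from 1.21 to 3.58. With the pseudocount it lay just inside the 1.5-fold line. Summed over the class, sirtuin FPKM was 37.9 in the D16 library and 24.96 in the control library, and 27.3 and 21.5 without SIRT1.

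The 250 bases before the RefSeq start are shown for SIRT1 and HDAC6, the members with the highest and the lowest difference. They are from the plus strand of GRCh38.p14, at chr10:67884406-67884655 for SIRT1, whose RefSeq start is that of the gene table, and at chrX:48801148-48801397 for HDAC6, whose RefSeq start used here lies 21 bp from the table's and is 1 of 3 listed. Capitals mark matches on either strand to the E-box CACGTG, the GC box GGGCGG or the core of the antioxidant response element TGACNNNGC. The CCAAT box, the cyclic AMP response element TGACGTCA and the heat shock element GAANNTTC were also searched and had no match in them.
SIRT1: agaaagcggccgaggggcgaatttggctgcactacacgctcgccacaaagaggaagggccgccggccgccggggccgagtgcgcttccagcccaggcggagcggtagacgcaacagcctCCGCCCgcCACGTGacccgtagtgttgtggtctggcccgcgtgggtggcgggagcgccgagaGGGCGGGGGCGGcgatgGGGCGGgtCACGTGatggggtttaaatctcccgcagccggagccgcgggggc
HDAC6: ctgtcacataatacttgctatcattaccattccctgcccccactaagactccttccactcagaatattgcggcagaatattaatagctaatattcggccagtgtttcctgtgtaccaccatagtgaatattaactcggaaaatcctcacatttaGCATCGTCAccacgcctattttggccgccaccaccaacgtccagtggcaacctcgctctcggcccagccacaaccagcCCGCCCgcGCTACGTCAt

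The SIRT1 window is rich in GC (72.0%) and holds 2 E-boxes, at positions -123 and -44 from the start, and 4 GC boxes. The HDAC6 window has a GC content of 50.0%, with 1 GC box and 2 matches to the antioxidant response core, at positions -96 and -10. Across all 35116 RefSeq promoter windows of this length, 6.34% held the E-box, 42.6% the GC box and 10.9% the antioxidant response core. Of the 51 members with a window, 13.7% held the E-box, 68.6% the GC box and 11.8% the antioxidant response core. The median GC content was 67.6% over the members' windows and 58.0% over all windows. Each member has 1 window, while all windows can include several starts of a gene, so the shares are not like for like. The part of GC content in them was not tested. Of the 5 higher members with a window, 1 held the E-box, 4 the GC box and 0 the antioxidant response core. Such matches describe the letters of these windows and are not evidence that a factor binds there.

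**Figure D2:**
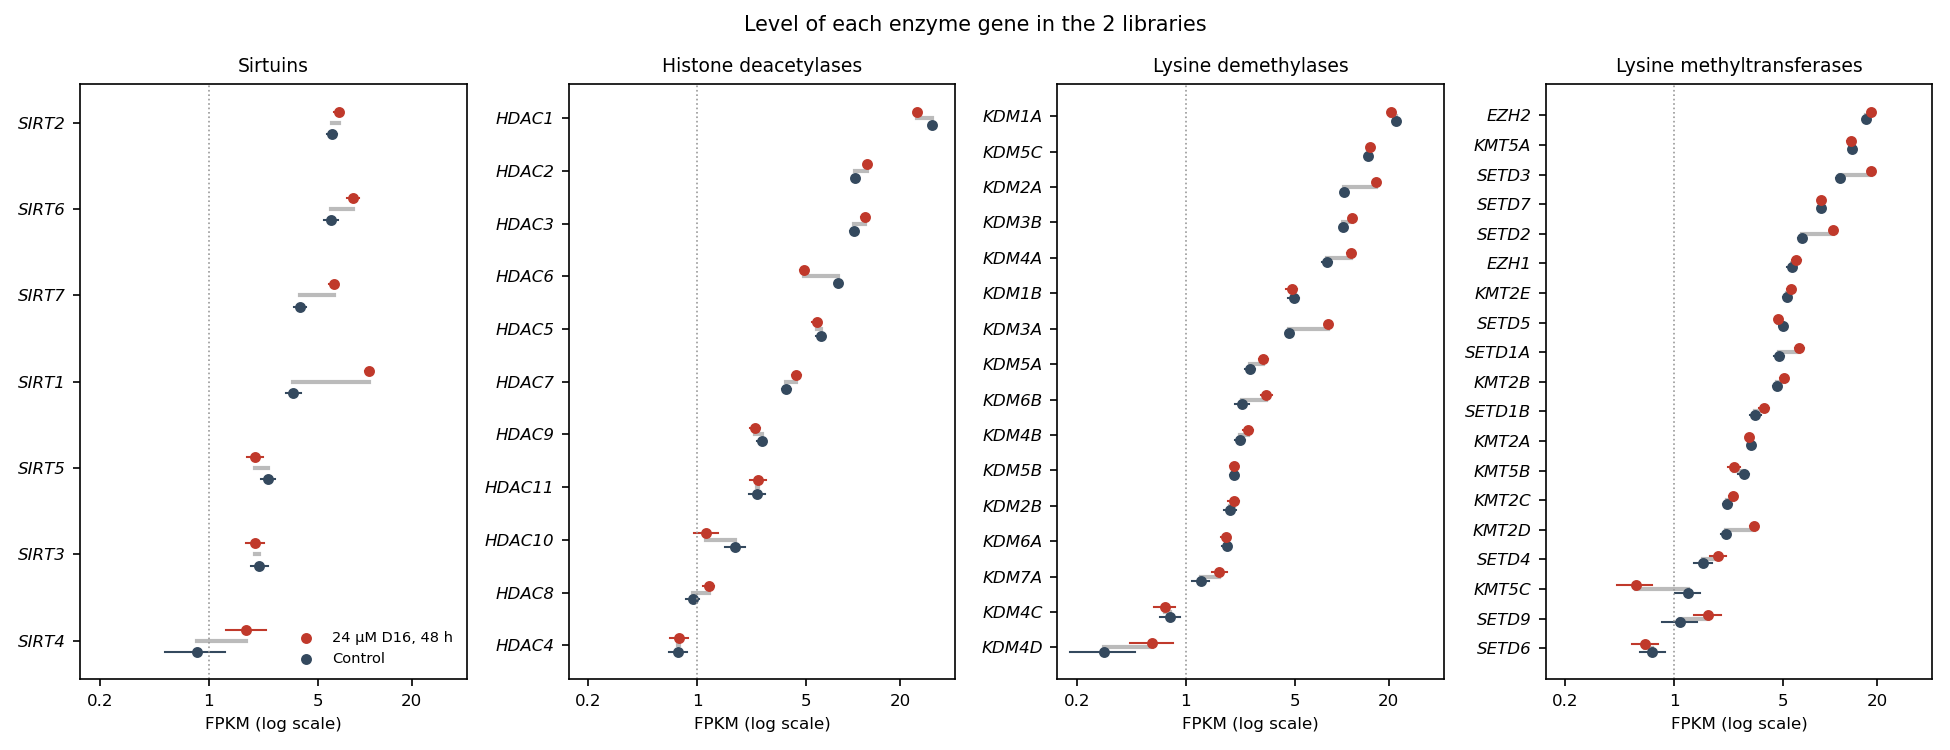
FPKM on a log axis for each enzyme gene by class, ordered by control level, in the D16 library (red, upper point) and the control library (dark blue, lower point), with 95% counting intervals and a gray bar joining the 2 levels; the dotted line marks 1 FPKM, and KDM4E and KDM4F, listed at 0 in 1 or both libraries, are left out. The widest gap is that of SIRT1, while HDAC6 runs the other way and most pairs of points nearly meet.

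Histone deacetylases showed no common shift, with 5 of 10 measured genes above 0 and 5 below, beside 56.9% of all genes above 0. Their median was -0.026, which was -0.17 after centring, 0.12 with equal sums and 0.02 without HDAC10. HDAC6, a mostly cytosolic deacetylase of tubulin and HSP90 that also binds ubiquitin and serves aggresome formation, stood at 4.83 FPKM in the D16 library and 8.03 FPKM in the control library. That is 1.66-fold lower (95% interval 1.54 to 1.79), from 1128 and 1801 read pairs. Its gene lies at chrX:48801377-48824976 on the plus strand. HDAC10, the other class IIb enzyme and a polyamine deacetylase, stood at 1.14 FPKM with D16 and 1.75 FPKM without it, 1.53-fold lower before the pseudocount and within 1.5-fold after it. HDAC10 overlaps MAPK12 on the same strand, and the part of shared reads in its value was not tested. Class IIb summed to 5.97 FPKM in the D16 library and 9.77 FPKM in the control library.

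HDAC1, HDAC2 and HDAC3 of class I, the catalytic core of the nuclear corepressor complexes, had the 3 highest FPKM of the deacetylases in both libraries. HDAC1 led the class at 25.6 FPKM in the D16 library and 31.9 FPKM in the control library, 1.25-fold lower, with an interval of the ratio from 0.759 to 0.850. Its close paralog HDAC2 ran the other way, at 12.3 and 10.3 FPKM in the D16 and control libraries (1.19-fold, interval 1.14 to 1.25). In read pairs HDAC2 was above HDAC1, with 4152 beside 2230 in the D16 library and 3343 beside 2671 in the control library. HDAC3, the enzyme of the NCoR complexes, stood at 11.95 FPKM with D16 and 10.1 FPKM without it. Class I as a sum was nearly level, at 51.0 FPKM in the D16 library and 53.2 FPKM in the control library, and HDAC8 contributed only 1.18 and 0.932 FPKM to these sums.

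Class IIa enzymes, which shuttle between nucleus and cytoplasm and have weak catalytic activity of their own, summed to 13.2 FPKM in the D16 library and 13.3 FPKM in the control library. HDAC5 stood at 5.82 and 6.19 FPKM in the D16 and control libraries, and HDAC7 at 4.31 and 3.73 FPKM. HDAC9 stood at 2.34 FPKM with D16 and 2.59 FPKM without it, and HDAC4, below the filter, at 0.765 and 0.754 FPKM. HDAC11, the one class IV enzyme, stood at 2.47 and 2.41 FPKM in the D16 and control libraries.

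**Figure D3:**
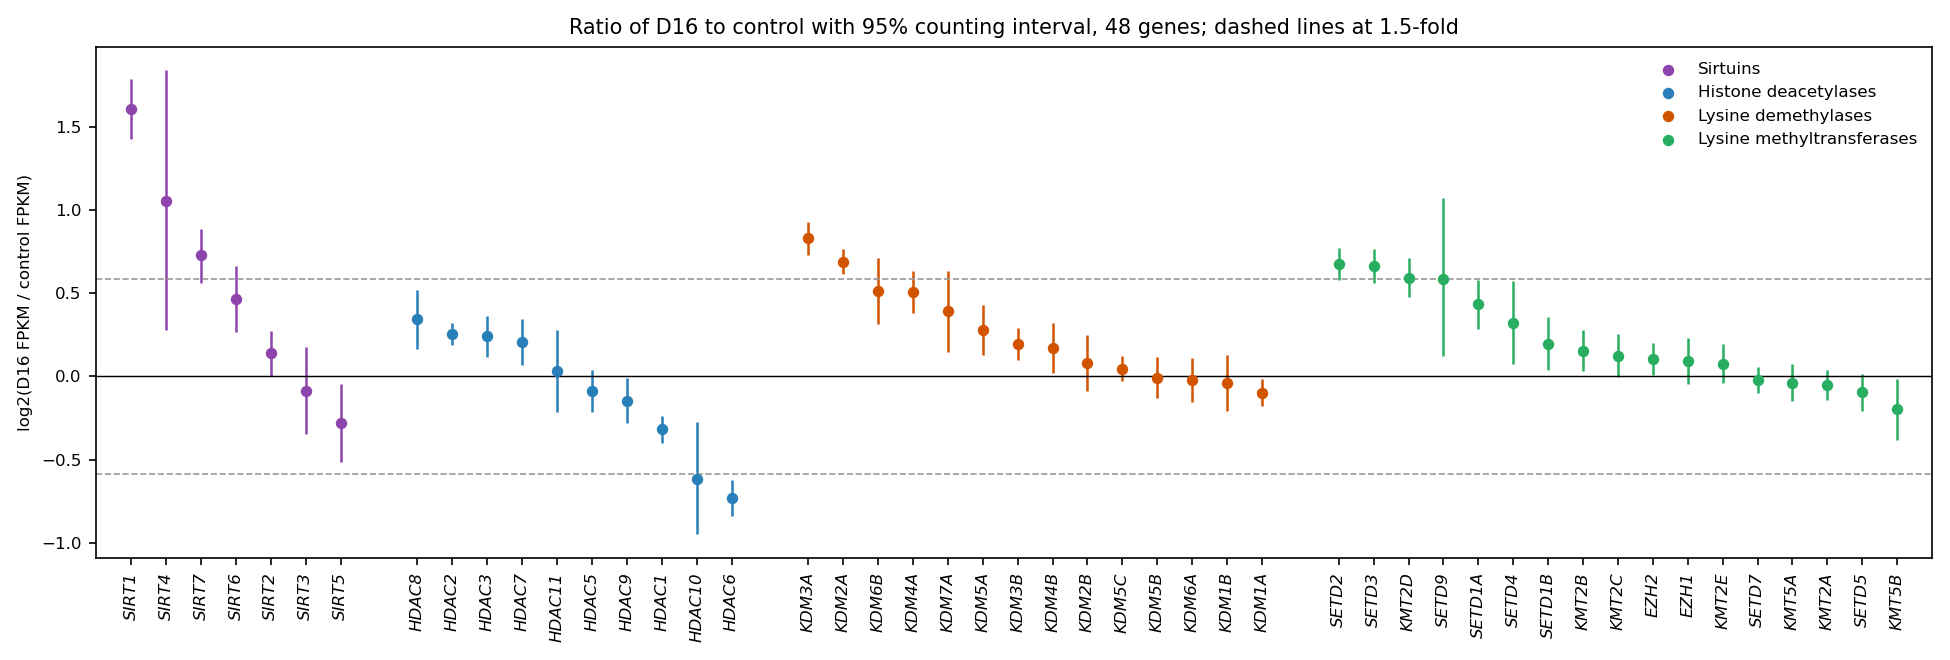
Log2 ratio of D16 to control FPKM, without pseudocount, for the 48 enzyme genes averaging 1 FPKM or more, by class, with vertical lines for 95% counting intervals and dashed lines at 1.5-fold. SIRT1 is highest, HDAC6 lowest, and SIRT4, SETD9 and HDAC10 have wide intervals because few reads were seen.

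Among the lysine demethylases, 10 of 14 measured genes lay above 0, beside 56.9% of all genes, with a median of 0.15 (0.0025 after centring). Past 1.5-fold were KDM3A and KDM2A as deposited, and neither of them after centring. Both are JmjC enzymes, as are all of this class but KDM1A and KDM1B. KDM3A, which removes methyl groups from lysine 9 of histone H3 and is known as a hypoxia-responsive gene, stood at 8.21 FPKM in the D16 library and 4.62 FPKM in the control library. The ratio was 1.78 (95% interval 1.66 to 1.902), from 2400 and 1299 read pairs at chr2:86440647-86492716 on the plus strand. KDM2A, a CpG-island protein that acts on lysine 36 of histone H3, stood at 16.6 and 10.3 FPKM in the D16 and control libraries, 1.61-fold (95% interval 1.53 to 1.70), from 3780 and 2255 read pairs at chr11:67119263-67258082 on the plus strand. Their paralogs differed less. KDM3B stood at 11.7 FPKM with D16 and 10.2 FPKM without it, and KDM2B, which recruits a variant Polycomb complex to CpG islands, at 2.03 and 1.92 FPKM.

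The KDM4 enzymes act on lysines 9 and 36 of histone H3, and their summed FPKM was 15.3 in the D16 library and 11.4 in the control library. KDM4A carried most of this, at 11.5 and 8.05 FPKM in the D16 and control libraries (1.42-fold, interval 1.304 to 1.55). KDM4B stood at 2.50 FPKM with D16 and 2.23 FPKM without it. The others were below the filter. KDM4C stood at 0.731 and 0.794 FPKM in the D16 and control libraries, and KDM4D at 0.611 and 0.300 FPKM, from 40 and 19 read pairs. KDM4E had 0 read pairs in the D16 library and 1 in the control library, and KDM4F had 0 in both. KDM4D, KDM4E and KDM4F lie near each other on chromosome 11 and resemble one another, so reads could be shared between them.

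Demethylases of lysines 4 and 27 of histone H3 all lay within 1.5-fold. KDM1A, the LSD1 amine oxidase of the CoREST complex, stood at 20.7 FPKM in the D16 library and 22.2 FPKM in the control library. These were the highest FPKM of the demethylases in each library. KDM1B stood at 4.79 and 4.92 FPKM in the D16 and control libraries. Of the KDM5 enzymes, which remove the lysine 4 mark of active promoters, KDM5A stood at 3.14 FPKM with D16 and 2.59 FPKM without it, KDM5B at 2.04 and 2.05 FPKM, and KDM5C at 15.3 and 14.8 FPKM. KDM6B, an inducible demethylase of lysine 27, stood at 3.29 FPKM in the D16 library and 2.31 FPKM in the control library, 1.43-fold (interval 1.25 to 1.64). Its X-linked paralog KDM6A stood at 1.80 and 1.83 FPKM in the D16 and control libraries, and KDM7A, a demethylase of lysines 9 and 27, at 1.64 and 1.25 FPKM.

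Lysine methyltransferases, a class set by gene name, had 12 of 17 measured genes above 0, beside 56.9% of all genes. Their median was 0.10, which was -0.048 after centring. Past 1.5-fold were 2 SETD genes as deposited and neither of them after centring. SETD2, the enzyme that trimethylates lysine 36 of histone H3 behind elongating RNA polymerase II, stood at 10.5 FPKM in the D16 library and 6.58 FPKM in the control library. Its ratio was 1.59 (95% interval 1.49 to 1.70), from 2363 and 1425 read pairs at chr3:47016429-47124250 on the minus strand. SETD3, which methylates a histidine of actin, stood at 18.3 and 11.5 FPKM in the D16 and control libraries, 1.58-fold (95% interval 1.47 to 1.70), from 2082 and 1266 read pairs at chr14:99397748-99480889 on the minus strand. SETD7, which methylates lysine 4 of histone H3 and several transcription factors, was nearly level at 8.67 FPKM with D16 and 8.79 FPKM without it. SETD5 stood at 4.65 and 4.96 FPKM in the D16 and control libraries, SETD4 at 1.91 and 1.53 FPKM, and SETD9 at 1.64 and 1.09 FPKM. SETD6, which methylates the NF-kB subunit RELA and overlaps CNOT1 on the opposite strand, was below the filter at 0.651 FPKM with D16 and 0.723 FPKM without it.

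The 7 KMT2 and SETD1 genes all lay within 1.5-fold, with 6 of 7 above 0 as deposited, beside 56.9% of all genes. Their median was 0.13 as deposited, but after centring the median gene, KMT2B, was at -0.019. All but KMT2E encode enzymes that methylate lysine 4 of histone H3 in COMPASS-type complexes. KMT2D, which marks enhancers, stood at 3.23 FPKM in the D16 library and 2.14 FPKM in the control library, a ratio of 1.51 before the pseudocount (interval 1.39 to 1.64). SETD1A, a promoter enzyme, stood at 6.34 and 4.70 FPKM in the D16 and control libraries, 1.35-fold, and its paralog SETD1B at 3.79 and 3.30 FPKM. KMT2A stood at 2.99 FPKM with D16 and 3.10 FPKM without it, and KMT2B at 5.06 and 4.55 FPKM. KMT2C stood at 2.39 and 2.19 FPKM in the D16 and control libraries, and KMT2E, whose own catalytic activity is in doubt, at 5.58 and 5.28 FPKM.

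The Polycomb methyltransferases of lysine 27 barely differed. EZH2, the form found in dividing cells, stood at 18.3 FPKM in the D16 library and 17.1 FPKM in the control library (ratio 1.08, interval 1.01 to 1.15). It had the highest FPKM of the methyltransferases here, with SETD3 at nearly the same D16 level. EZH1 stood at 6.06 and 5.68 FPKM in the D16 and control libraries. The enzymes of lysine 20 on histone H4 showed both small and larger differences. KMT5A, which adds the first methyl group and whose log2 difference was -0.04 as deposited and 0.13 with equal sums, stood at 13.5 FPKM with D16 and 13.9 FPKM without it, and KMT5B, which adds further ones, at 2.42 and 2.78 FPKM. KMT5C, a paralog of KMT5B, lay below the filter of a mean of 1 FPKM, at 0.564 FPKM in the D16 library and 1.22 FPKM in the control library. It was 2.17-fold lower (interval 1.54 to 2.92) from 61 and 124 read pairs, the largest ratio in the lower direction among the members with reads in both libraries.

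The differences showed little relation to the length, level or base composition of the messages. Across the 48 measured genes, Pearson's r of the log2 difference was -0.03 with the log10 length of the longest GENCODE transcript, 0.10 with the log10 mean FPKM and -0.13 with GC content. These are descriptions across genes of the same 2 libraries, and genes are not replicates. Their transcripts were long, with a median of 5770 bases, against 3301 over all genes at this level. In 7 of the 55 genes the body overlaps another gene averaging 1 FPKM or more on the opposite strand, and HDAC10 and KDM5C overlap one on the same strand. None of the 6 higher and 1 lower genes is among these, so leaving them out could not change those calls.

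Enzymes and partners outside the symbol rule were read from 9 lists, whose counts past 1.5-fold stand against 13.2% of all genes higher and 11.0% lower. Lysine acetyltransferases and related acetyltransferases had 5 of 17 measured genes at least 1.5-fold higher and 0 lower, with a median of 0.27. With members overlapping a gene on either strand left out, 3 were higher. After centring 3 were higher and 1 lower, against 8.31% and 15.6% of all genes, and with a pseudocount of 5 FPKM 0 were past the line. NAA60 stood at 4.12 FPKM in the D16 library and 1.79 FPKM in the control library. The coactivator NCOA3 stood at 10.8 and 5.59 FPKM in the D16 and control libraries, and NAA40, which acetylates the N terminus of histones H2A and H4, at 7.74 and 3.90 FPKM. BET readers, which bind acetylated histones, had 0 genes past 1.5-fold with the pseudocount of 1 FPKM, 1 with a pseudocount of 0.1 FPKM and 2 with equal sums. BRD2, which overlaps other genes on both strands, stood at 49.6 FPKM with D16 and 32.8 FPKM without it, a ratio of 1.51 before the pseudocount and just under the line after it. BRD3 stood at 6.07 and 5.83 FPKM in the D16 and control libraries.

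Counts for partners of the enzymes depended on the scaling. Of 11 measured PRC2 partners, 2 were higher (1 after centring, 0 with a pseudocount of 5 FPKM) and 0 lower, with MTF2, an accessory subunit that guides the complex to CpG islands, at 5.86 FPKM in the D16 library and 3.05 FPKM in the control library. LCOR stood at 2.27 and 1.06 FPKM in the D16 and control libraries, and PHF19, another accessory subunit, at 10.4 and 14.3 FPKM. Of 14 COMPASS partners, 1 was higher and 2 lower, and the lower count was 0 with equal sums and 3 after centring. The core subunit RBBP5 stood at 11.5 FPKM with D16 and 5.62 FPKM without it, while menin (MEN1) stood at 6.26 and 10.7 FPKM and its binding partner PSIP1, which overlaps SNAPC3 on the opposite strand, at 6.87 and 10.99 FPKM. Of 44 HDAC complex partners, 3 were higher and 4 lower, with a median of 0.04. With equal sums 7 were higher and 3 lower, after centring 0 were higher and 5 lower with a median of -0.11, and with a pseudocount of 5 FPKM 0 were past the line. Among the lower ones, CORO2A stood at 1.68 FPKM in the D16 library and 3.75 FPKM in the control library, and TRERF1 at 4.88 and 8.88 FPKM.

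Other methyltransferases and JmjC proteins held a few larger differences. Of 25 measured methyltransferases with other names, 1 was higher and 2 lower. With equal sums 4 were higher and 0 lower, with TMM-scaled counts 3 were higher and 2 lower, and without genes overlapping on either strand 0 were higher and 1 lower. SUV39H2, which trimethylates lysine 9 of histone H3, stood at 8.91 FPKM in the D16 library and 2.73 FPKM in the control library, 3.26-fold (95% interval 2.79 to 3.83), and overlaps DCLRE1C on the opposite strand. SMYD2 stood at 5.93 and 10.5 FPKM in the D16 and control libraries, and NSD2, a methyltransferase of lysine 36, at 8.37 and 14.0 FPKM. Of 10 measured JmjC proteins 2 were higher and 0 lower. RIOX1, a ribosomal oxygenase, stood at 10.98 FPKM with D16 and 5.33 FPKM without it, JMJD6 at 10.5 and 5.39 FPKM, and the HIF hydroxylase HIF1AN at 6.51 and 4.55 FPKM. Of 7 measured DNA methylation enzymes, TDG, a glycosylase of DNA demethylation, was the 1 past 1.5-fold with the pseudocount, at 11.6 FPKM in the D16 library and 3.56 FPKM in the control library (3.26-fold, interval 2.89 to 3.66). DNMT3B stood at 2.34 and 3.69 FPKM in the D16 and control libraries, 1.58-fold lower before the pseudocount and within 1.5-fold after it. After centring, with TMM-scaled counts or with a pseudocount of 0.1 FPKM, 1 gene of this list was past the line in the lower direction. The maintenance enzyme DNMT1 stood at 16.1 FPKM with D16 and 21.7 FPKM without it.

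Enzymes that make or use the cofactors of these reactions were the list with the lowest median, -0.44 over 15 measured genes, with 6 at least 1.5-fold lower and 0 higher, where 11.0% of all genes were lower. The lower count was 4 with equal sums, 8 after centring, 7 with TMM-scaled counts and 1 with a pseudocount of 5 FPKM. The median was -0.32 with equal sums, -0.59 after centring and -0.58 with TMM-scaled counts. NNMT, which spends S-adenosylmethionine to methylate nicotinamide, stood at 3.86 FPKM in the D16 library and 23.2 FPKM in the control library, 6.003-fold lower (95% interval 5.20 to 6.96). NMNAT2, an NAD-synthesising enzyme, stood at 1.73 and 4.64 FPKM in the D16 and control libraries. IDH2, which makes 2-oxoglutarate in mitochondria, stood at 4.56 FPKM with D16 and 9.003 FPKM without it.

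**Figure D4:**
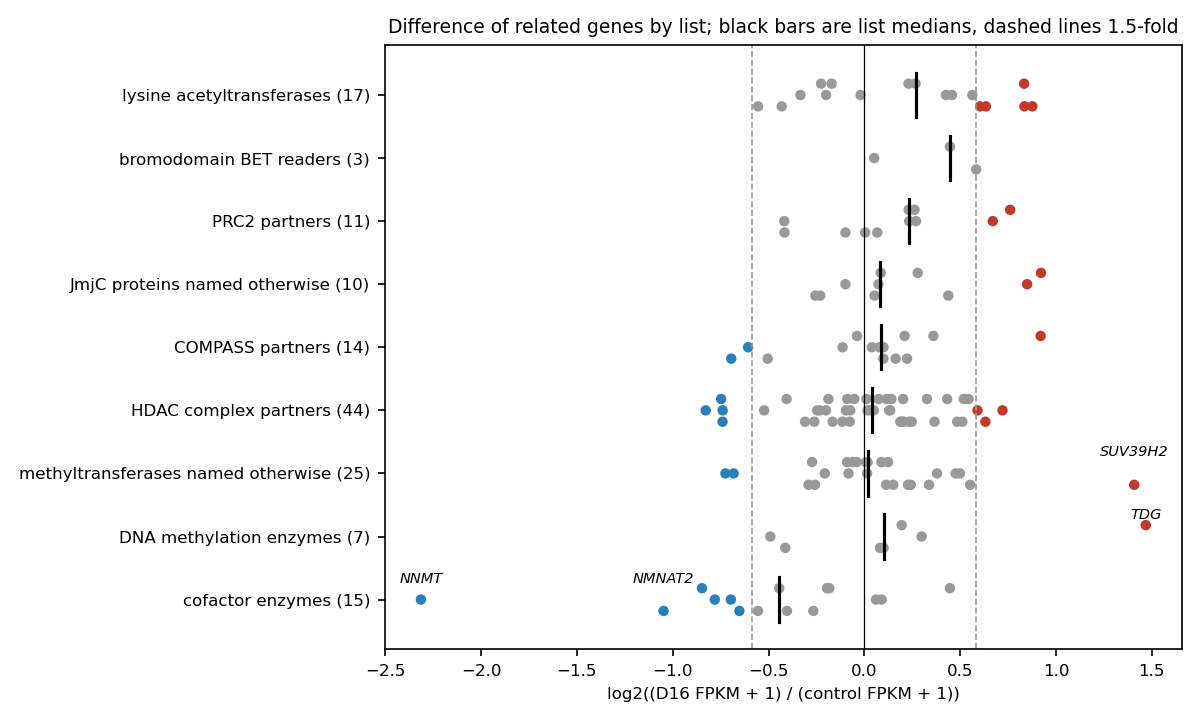
Log2 difference between the D16 and control libraries for related genes averaging 1 FPKM or more, 1 point per gene, in 9 lists with the number of genes in brackets; points are spread vertically only to show them apart, red and blue points lie past 1.5-fold, and black bars are medians. SUV39H2 and TDG lie farthest to the right and NNMT farthest to the left, and cofactor enzymes have the lowest median at -0.44.

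Of the receptor genes behind the triple-negative label, ESR1 stood at 0.00935 FPKM in the D16 library and 0.0192 FPKM in the control library. PGR was listed at 0 in both. ERBB2 was detected at 5.72 and 5.38 FPKM in the D16 and control libraries, RNA levels that do not measure its protein or gene copies. The leukocyte gene CD3E was listed at 0 in both libraries, and PTPRC stood at 0.00935 and 0.0540 FPKM in the D16 and control libraries. The fibroblast gene COL1A1 stood at 2.46 and 2.72 FPKM in the D16 and control libraries, and the endothelial gene PECAM1 at 0.0591 and 0.446 FPKM. The other endothelial and fibroblast genes read (CDH5, VWF, DCN and LUM) reached at most 0.229 FPKM, for DCN in the D16 library. The libraries average over all cells, so fewer cells of a type and less RNA per cell cannot be told apart.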

How the data were processed

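RNA from 1 D16-treated and 1 control culture of MDA-MB-231 cells was sequenced, per the labels' protocols, as strand-marked paired-end libraries. Tools listed in the submitters' processing notes are StringTie 1.3.4d, HISAT2 2.0.4 and cutadapt 1.9, in no stated role. The build was not given in the sources used here. All 55 gene identifiers were found in GENCODE 29 (GRCh38), 22 with the same ends and 55 with both ends within 50000 bp.

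The authors deposited FPKM, per the file headers, and list absent genes at 0.0001, read here as 0. The deposited estimated counts track FPKM. In 98.4% of 13018 genes reaching 100 counts in both libraries, the D16 to control ratio matched between the units within 1%, after a common factor of 0.962. Low counts pile up at 4 (473, 1308 and 254 control genes had 3, 4 and 5 counts), so 4 counts were taken as 1 read pair, a reading of the values that no label states.

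Differences are log2((D16 FPKM + 1) / (control FPKM + 1)), so changes of low genes are understated. Folds and ratios carry no pseudocount. Their 95% intervals come from Clopper-Pearson bounds on the D16 share of read pairs, multiplied by 0.962, and intervals of levels are exact Poisson bounds. All cover counting error only. Every member was given. In each related list the 3 genes with the largest difference at 1 FPKM or more on average were named, apart from a few that are not reported here; KMT5C was singled out after its values were seen. Members and lists were chosen with earlier results of these data known. Promoter windows are from RefSeq and matched 51 of 55 members; HDAC5, KDM4E, SETD1B and SIRT7 had none. The steps were tested on simulated data. Alternatives were pseudocounts of 0.1 and 5 FPKM, equal sums, centring, edgeR's TMM scaling, other filters and leaving out overlapping genes, on either strand after the data were seen. The 4 other deposited sheets were not used. Python 3.11.15, scipy 1.17.1, R 4.3.3 and edgeR 4.0.16 were used.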

Additional observations from a re-analysis of the deposited data

How the results depend on the processing

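With 1 library per group, no replicate could be left out and no paired analysis was possible because each group holds 1 sample. SIRT1's log2 difference ranged from 0.88 to 1.59 and that of HDAC6 from -0.78 to -0.41 over the 5 scalings and pseudocounts tried for single genes, so both kept their direction. A pseudocount of 5 FPKM left SIRT1 as the 1 higher member, with 0 lower and 0 past 2-fold, and a sirtuin median of 0.21; it shrinks all differences by construction. Equal sums left 0 lower members and gave medians of 0.27 over all members, 0.12 for deacetylases, 0.29 for demethylases, 0.27 for methyltransferases and 0.57 for sirtuins. Centring, which subtracts 0.15, left 1 higher member, SIRT1, and gave medians of -0.027, -0.17, 0.0025, -0.048 and 0.26 in the same order. With TMM-scaled counts, which carry no 1 FPKM pseudocount, 2 members (HDAC6 and HDAC10) were lower and 2 (SIRT1 and SIRT4) were past 2-fold higher. A mean of at least 5 FPKM left 6 demethylases with a median of 0.32, and 5 sirtuins overlapping no gene on either strand had a median of 0.58. Of 483 recomputed values of single members and related lists, 360 moved by less than their margin and 123 by more. A change of sign was looked for only in single members past 1.5-fold, and 0 changed. This is a weak check, since a pseudocount cannot reverse a sign and centring subtracts only 0.15. Depth limits SIRT4, KDM4D, SETD9, HDAC10 and KMT5C most.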
